A study of Mus musculus with 4 samples.

Results

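The genes described here are 34 mouse genes linked to Atf4, the transcription factor through which cells respond to a shortage of amino acids, together with the enzymes that make serine and feed its carbon into folate metabolism. They were given as a list of gene names, drawn up with earlier results of these data known, so their counts are a description of these genes. Of the 34 genes 33 carry a probe set with 1 gene symbol, and each of the 33 carries only 1 such probe set. Pycr1 is not analysed here on the arrays. The 33 genes stand among 19938 genes tested. The cells were Py2T, a mouse breast cancer line that loses epithelial features under TGFβ, grown in DMEM with glutamine, antibiotics and fetal calf serum. Total RNA was measured on 4 arrays, 2 from cells left untreated and 2 from cells given TGFβ at 2 ng/ml for 5 days. All cells belong to this 1 line, and the labels name no other allele or agent. The labels call the arrays of a group biological replicates without saying how the cultures were kept apart, so the p-values below reflect no more than the spread among these 4 arrays, which may be technical.

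In the integrated stress response, kinases that sense amino acid shortage or unfolded protein phosphorylate the initiation factor eIF2, which slows general translation while raising translation of the Atf4 mRNA. Atf4 then pairs with C/EBP family proteins and activates genes for amino acid uptake and synthesis, serine and mitochondrial folate enzymes, and feedback regulators such as Ddit3 and Trib3. Tumour cells are known to use the serine and folate branch to make nucleotides. Because Atf4 is regulated largely in translation, its mRNA level is an incomplete measure of its activity.

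Values are on the RMA log2 scale, so a difference of 1 is a doubling, and values under 7 are treated as dim. The array medians over all probe sets lay between 6.742 and 6.756. A gene was called when its adjusted p from limma was under 0.05. Epithelial keratins were bright in every array, with Krt8 at 13.48 and 13.55 in untreated and 13.61 and 13.54 in TGFβ cells, while of 8 measured epithelial markers 0 rose and 4 fell. The epithelial markers summed to 96.3 and 95.2 (log2 units) in untreated and 87.0 and 89.3 in TGFβ arrays. Leukocyte markers (7 of 8 measured) summed to between 42.6 and 45.5 and endothelial markers (6 of 6) to between 33.9 and 34.3. Fibroblast markers (8 of 8) summed to between 52.0 and 54.6 and adipocyte markers (6 of 6) to between 37.5 and 39.0. The leukocyte marker Ptprc lay between 5.49 and 5.57 and the endothelial marker Pecam1 between 5.74 and 5.88. Not all such markers were dim. Both group means were under 7 in 5 of 7 leukocyte, 6 of 6 endothelial, 3 of 8 fibroblast and 5 of 6 adipocyte markers. The highest single values were 9.63 for leukocyte, 6.98 for endothelial, 9.08 for fibroblast and 8.67 for adipocyte markers. The lowest TGFβ difference among the leukocyte markers was -1.29. Of the fibroblast markers 2 rose, and 0 of the leukocyte, endothelial or adipocyte markers were called. In such bulk RNA, fewer cells of a type and less RNA per cell cannot be told apart.

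The composite element that Atf4 binds with C/EBP proteins, known as the amino acid response element, has TGATGNAA as its core, and this core was searched in promoter windows of 250 bases before to 50 bases after the RefSeq gene start (GRCm38.p6). RefSeq windows were found for 29 of the 34 genes, and 11 of these 29 (37.9%) hold the core on either strand. Among 15614 genes tested on the arrays that have such a window 3.62% hold it, and of the 32851 RefSeq windows in all 3.97%. The listed genes were picked for their link to Atf4, so their higher share may follow from that choice and is a description only. Eif4ebp1, Aldh1l2, Cth, Slc7a5 and Slc1a5 have no window in the table. The matches are shown as windows of 30 bases read 5′ to 3′ along the strand on which the core appears as TGATGNAA, with the core in capitals. Each line ends in the position of the core's first base on the gene's own strand, counted from 0 at the gene start.
Atf3, chr1:191183425-191183454, plus strand, position -110: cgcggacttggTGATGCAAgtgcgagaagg
Nupr1, chr7:126625562-126625591, plus strand, position -110: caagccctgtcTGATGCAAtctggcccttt
Trib3, chr2:152344028-152344057, plus strand, position 14: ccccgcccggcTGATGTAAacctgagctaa
Chac1, chr2:119351038-119351067, minus strand, position -193: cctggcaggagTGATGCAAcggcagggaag
Vldlr, chr19:27216809-27216838, minus strand, position -200: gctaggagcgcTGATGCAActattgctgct
Fgf21, chr7:45615611-45615640, plus strand, position -139: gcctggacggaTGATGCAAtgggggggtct
Asns, chr6:7693214-7693243, minus strand, position -23: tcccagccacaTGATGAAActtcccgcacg
Got1, chr19:43524689-43524718, plus strand, position -102: ggaggcttgtaTGATGCAAccaatgcaatg
Pycr1, chr11:120643833-120643862, minus strand, position -103: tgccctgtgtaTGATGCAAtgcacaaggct
Slc7a11, chr3:50443661-50443690, minus strand, position -66: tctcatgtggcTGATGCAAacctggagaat
Slc7a11, chr3:50443642-50443671, plus strand, position -47: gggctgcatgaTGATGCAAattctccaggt
Slc1a4, chr11:20332699-20332728, plus strand, position -4: caggctggagaTGATGCAAcgcaggaggca
Most matches have the letters TGATGCAA, with TGATGTAA in Trib3 and TGATGAAA in Asns as the exceptions. Slc7a11 holds the core once on each strand, and its 2 windows overlap. A match describes the letters only and was not tested as a binding site.

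TGFβ-treated cells were compared with untreated cells to ask which of these genes change over 5 days of TGFβ. The response was mixed and mostly small. The folate enzyme Mthfd2 rose 1.91-fold, the neutral amino acid transporter Slc1a4 1.50-fold, the serine phosphatase Psph 1.48-fold, the aspartate transaminase Got1 1.28-fold and the transcription factor Atf5 1.28-fold. The stress-induced mTORC1 inhibitor Sesn2 fell 1.60-fold. Well-known targets such as Ddit3, Chac1, Nupr1 and Atf3 had group means within 0.09 of each other on the log2 scale, while their TGFβ replicates lay 0.25 to 0.56 apart.

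Of the 33 genes 5 rose, 1 fell and 27 did not pass, so 6 (18.2%) were called against 13.6% of all genes. These shares are not matched for brightness, as 2 of the 33 genes were dim in both groups, against 9022 of all 19938. Without the dimmer 50% of genes 7 of 31 Atf4-linked genes were called, against 2454 of 9969 genes. Over all genes 6.49% were called higher and 7.15% lower. The median log2 difference of the 33 genes was 0.089, against 0.0097 over all genes, and within the SD of 0.169 that the genes' median level showed between replicates. It was 0.175 without TGFβ replicate 1 and 0.049 without TGFβ replicate 2. At an unadjusted p under 0.05 there were 13 of the 33 genes, against 26.1% of all genes. In 16 genes both TGFβ arrays lay above both untreated arrays, against 27.6% of all genes, in 5 they lay below, against 25%, and in 12 the groups overlapped, against 47.4%. Without untreated replicate 1 the count called was 3, with 1 higher and 2 lower, and without TGFβ replicate 2 it was also 3, again 1 higher and 2 lower, with the lone array of the group taken to vary like the other group. With 2 arrays a group, the smallest two-sided p of an exact permutation test is 0.333.

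**Figure D1:**
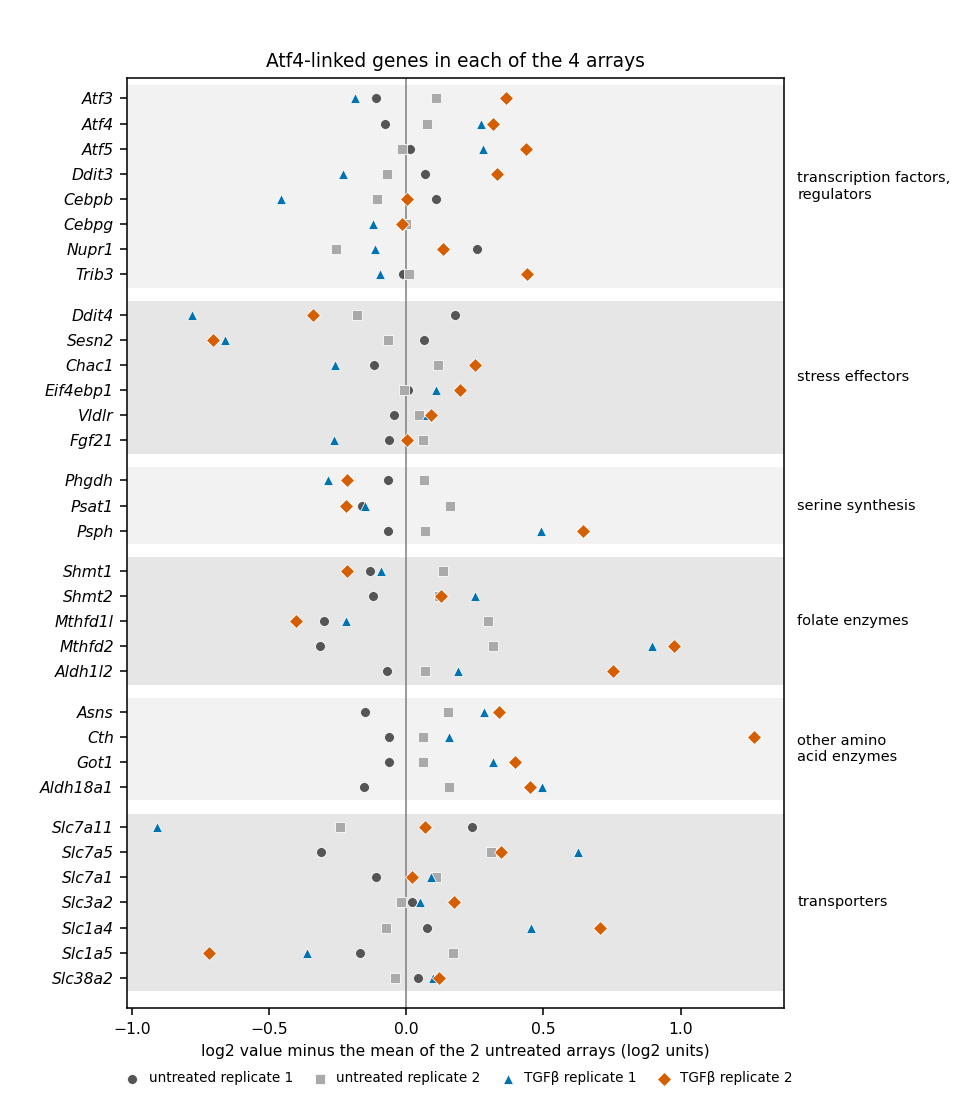
Each point is 1 array's log2 value for 1 gene minus the mean of that gene's 2 untreated arrays (x axis, log2 units), with genes grouped by role on the y axis. TGFβ replicate 2 of Cth stands farthest to the right, at 1.27, and TGFβ replicate 1 of Slc7a11 farthest to the left, at -0.91.

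**Figure D2:**
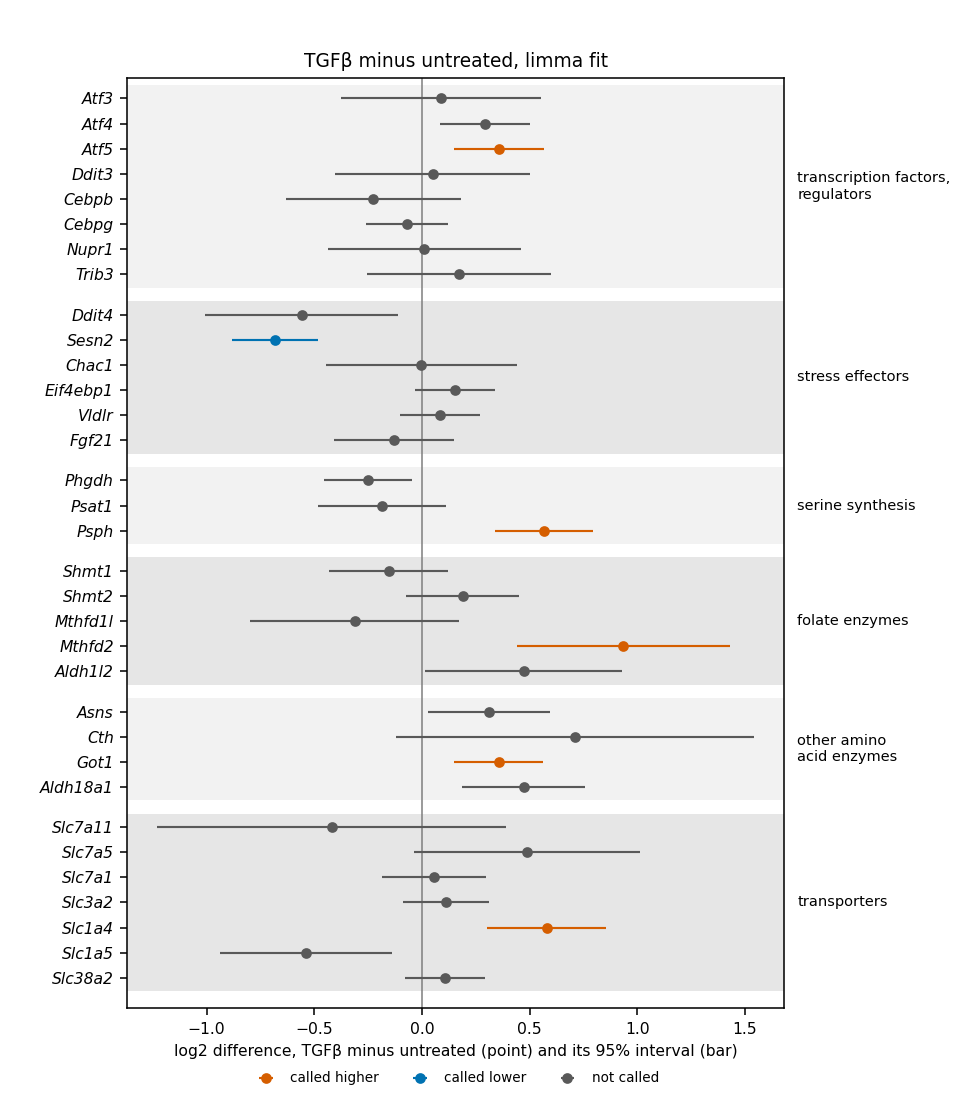
Points are the log2 differences of TGFβ minus untreated cells from limma and bars are their 95% intervals, for the 33 genes by role. Orange marks the 5 genes called higher, blue the 1 called lower and grey the 27 not called.

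Among the factors, Atf4 itself was at 9.68 and 9.83 in untreated and 10.02 and 10.07 in TGFβ cells. Both TGFβ arrays lay above both untreated arrays, and the log2 difference of 0.29 (95% interval 0.09 to 0.50) did not pass at adjusted p = 0.080. Atf5, a related factor also controlled in translation, was at 8.69 and 8.66 in untreated and 8.95 and 9.11 in TGFβ cells. Its groups did not overlap and it rose by 0.36 ± 0.08 (SE, adjusted p = 0.046). Leaving out any single array ended that call, with adjusted p = 0.16 and 0.18 after dropping untreated replicate 1 or 2, and 0.052 and 0.14 after dropping TGFβ replicate 1 or 2. Cyclic loess (adjusted p = 0.054) and a variance model with an intensity trend (adjusted p = 0.072) ended it as well.

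The other 6 factors and regulators were not called. Atf3, a repressor induced by Atf4, was at 10.02 and 10.24 in untreated cells, and the TGFβ arrays fell on either side, at 9.94 and 10.49. Ddit3, also called Chop, a C/EBP-like factor of prolonged stress, was at 9.13 and 8.99 in untreated and 8.83 and 9.39 in TGFβ cells. Trib3, a pseudokinase that restrains Atf4, was at 8.87 and 8.89 in untreated and 8.78 and 9.32 in TGFβ cells. In all of these the untreated arrays lay between a lower TGFβ replicate 1 and a higher TGFβ replicate 2. The differences were 0.09 for Atf3 (95% interval -0.37 to 0.55), 0.05 for Ddit3 (-0.40 to 0.50) and 0.17 for Trib3 (-0.25 to 0.60). Without TGFβ replicate 1 Trib3 passed (0.44, adjusted p = 0.04999), and without TGFβ replicate 2 its difference was -0.095 (adjusted p = 0.64).

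Cebpb, a C/EBP partner of Atf4, was at 9.28 and 9.06 in untreated and 8.72 and 9.17 in TGFβ cells, so that TGFβ replicate 1 was the lowest of the 4 arrays. Cebpg, another C/EBP partner, was at 9.09 in both untreated arrays and at 8.97 and 9.07 in TGFβ cells, a difference of -0.07 (95% interval -0.26 to 0.12). Nupr1, a small stress-induced chromatin protein, was at 12.00 and 11.48 in untreated and 11.63 and 11.87 in TGFβ cells. The untreated arrays of Nupr1 enclosed the TGFβ arrays, and the difference was 0.011 (95% interval -0.44 to 0.46).

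Of the 6 stress effectors 0 rose, 1 fell and 5 did not pass, against 13.6% of all genes called. Sesn2, sestrin 2, which holds back mTORC1 when leucine is scarce, was at 9.49 and 9.36 in untreated and 8.76 and 8.72 in TGFβ cells. The groups stood apart and Sesn2 fell by 0.68 ± 0.08 (SE, adjusted p = 0.0054), a call kept in 12 of 12 alternatives. Some of these alternatives leave the gene's own values unchanged. Ddit4, another mTORC1 inhibitor, induced by hypoxia and by Atf4, was at 11.73 and 11.37 in untreated and 10.77 and 11.21 in TGFβ cells. Both TGFβ arrays of Ddit4 were the lower ones, with a difference of -0.56 (95% interval -1.01 to -0.11, adjusted p = 0.11), and without TGFβ replicate 2 it passed at -0.78 (adjusted p = 0.044). The Ddit4 difference was -0.34 without TGFβ replicate 1 (adjusted p = 0.32) and -0.38 without untreated replicate 1 (adjusted p = 0.38).

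Chac1, an enzyme that degrades glutathione and a sensitive Atf4 target, was at 9.67 and 9.90 in untreated and 9.52 and 10.03 in TGFβ cells. The TGFβ arrays enclosed the untreated ones, with a difference of -0.0029 (95% interval -0.45 to 0.44). Eif4ebp1, which blocks cap-dependent translation, was at 11.55 and 11.54 in untreated and 11.65 and 11.74 in TGFβ cells, a separation of 0.15 that did not pass (adjusted p = 0.29). Fgf21, a secreted stress hormone, had group means of 5.94 in untreated and 5.81 in TGFβ cells, and Vldlr, a lipoprotein receptor, of 5.60 and 5.69. Both were dim in all arrays, where a change would be hard to detect.

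The 3 enzymes that make serine from a glycolytic intermediate did not move as a block. Psph, which carries out the last step, was at 8.26 and 8.40 in untreated and 8.82 and 8.97 in TGFβ cells. The groups stood apart and Psph rose by 0.57 ± 0.09 (SE, adjusted p = 0.014), which no longer passed when untreated replicate 1 was dropped (0.50, adjusted p = 0.072). Phgdh, which carries out the first and committed step, was at 10.62 and 10.75 in untreated and 10.40 and 10.47 in TGFβ cells. Both TGFβ arrays of Phgdh were the lower ones, with a difference of -0.25 (95% interval -0.46 to -0.04) that did not pass (adjusted p = 0.12). Psat1, the aminotransferase between them, was at 11.74 and 12.06 in untreated and 11.75 and 11.68 in TGFβ cells, with overlapping groups (difference -0.18, adjusted p = 0.44).

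Of the 5 enzymes that pass serine carbon to folate 1 rose, 0 fell and 4 did not pass, against 13.6% of all genes called. Mthfd2, the mitochondrial enzyme that oxidises methylene folate, was at 9.75 and 10.38 in untreated and 10.96 and 11.04 in TGFβ cells. Both TGFβ arrays were well above both untreated arrays, which themselves lay 0.63 apart, and Mthfd2 rose by 0.93 ± 0.20 (SE, adjusted p = 0.034). Dropping TGFβ replicate 1 gave 0.98 (adjusted p = 0.089) and dropping TGFβ replicate 2 gave 0.89 (adjusted p = 0.099), so neither passed. The size moved more with the untreated arrays, to 0.62 without untreated replicate 1 and 1.25 without untreated replicate 2. Mthfd1l, which acts next to it in the mitochondrion to release formate, was at 9.73 and 10.33 in untreated and 9.81 and 9.63 in TGFβ cells. Untreated replicate 2 of Mthfd1l stood above the other 3 arrays, the difference was -0.31 (adjusted p = 0.43), and it was -0.61 without untreated replicate 1, where it passed (adjusted p = 0.046), but -0.013 without untreated replicate 2 (adjusted p = 0.98).

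Aldh1l2, which oxidises mitochondrial formyl folate, was at 8.06 and 8.20 in untreated and 8.32 and 8.88 in TGFβ cells. Its groups did not overlap, but the difference of 0.47 (95% interval 0.02 to 0.93) did not pass (adjusted p = 0.18), and it was 0.75 without TGFβ replicate 1, where it passed (adjusted p = 0.016), but 0.19 without TGFβ replicate 2 (adjusted p = 0.37). Shmt2, the mitochondrial serine hydroxymethyltransferase, was at 11.57 and 11.81 in untreated and 11.95 and 11.82 in TGFβ cells. The separation of the Shmt2 arrays was narrow, with a difference of 0.19 (adjusted p = 0.36). The cytosolic form Shmt1 was at 9.20 and 9.46 in untreated and 9.24 and 9.11 in TGFβ cells, with overlapping groups (-0.16, adjusted p = 0.50).

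In the 4 other amino acid enzymes measured, both TGFβ arrays lay above both untreated arrays in each gene, against 27.6% of all genes. Of the 4 genes 1 passed, against 13.6% of all genes, and these shares are not matched for brightness. Got1, the cytosolic aspartate transaminase, was at 11.70 and 11.83 in untreated and 12.08 and 12.16 in TGFβ cells and rose by 0.36 ± 0.08 (SE, adjusted p = 0.044). Got1 did not pass once any single array was dropped, with adjusted p = 0.22 and 0.087 when this was untreated replicate 1 or 2, and 0.087 and 0.14 when it was TGFβ replicate 1 or 2. Cyclic loess (adjusted p = 0.058) and repeated quantile normalization (adjusted p = 0.051) also ended it. Aldh18a1, which starts proline synthesis from glutamate, was at 10.78 and 11.09 in untreated and 11.43 and 11.39 in TGFβ cells. Its difference of 0.47 (95% interval 0.18 to 0.76) was just outside the threshold at adjusted p = 0.0518, and it passed at 0.63 without untreated replicate 2 (adjusted p = 0.025). It also passed with median centring (adjusted p = 0.0496) and without the dimmest 25% (adjusted p = 0.043) or the dimmer 50% of genes (adjusted p = 0.039). A variance model with an intensity trend and robust variances gave adjusted p = 0.024. Aldh18a1 did not pass with cyclic loess (adjusted p = 0.053), repeated quantile normalization (0.056), the mean over probe sets (0.052) or the replicate number as a block (0.099). Its difference was 0.32 without untreated replicate 1, and 0.45 and 0.49 without TGFβ replicate 1 or 2.

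Asns, asparagine synthetase, the textbook target of Atf4, was at 12.22 and 12.52 in untreated and 12.66 and 12.71 in TGFβ cells. Both TGFβ arrays of Asns were the higher ones, with a difference of 0.31 (95% interval 0.03 to 0.59) that did not pass (adjusted p = 0.15) and was 0.16 without untreated replicate 1 (adjusted p = 0.57). Cth, which makes cysteine from cystathionine, was at 8.13 and 8.25 in untreated and 8.35 and 9.46 in TGFβ cells. TGFβ replicate 2 stood far above the other 3 arrays, and the difference of 0.71 (95% interval -0.12 to 1.54, adjusted p = 0.27) did not pass. It was 1.27 without TGFβ replicate 1 (adjusted p = 0.0035) and 0.16 without TGFβ replicate 2, where it did not pass.

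Of the 7 transporters 1 rose, 0 fell and 6 did not pass, against 13.6% of all genes called. Slc1a4, a neutral amino acid exchanger that carries serine and alanine, was at 8.85 and 8.70 in untreated and 9.23 and 9.48 in TGFβ cells and rose by 0.58 ± 0.11 (SE, adjusted p = 0.025). Dropping untreated replicate 1 gave 0.66 (adjusted p = 0.052), dropping untreated replicate 2 gave 0.51 (adjusted p = 0.10) and dropping TGFβ replicate 2 gave 0.45 (adjusted p = 0.061), none of them past the threshold. Its relative Slc1a5, which carries glutamine, was at 9.59 and 9.93 in untreated and 9.40 and 9.04 in TGFβ cells. Both TGFβ arrays of Slc1a5 were the lower ones, with a difference of -0.54 (95% interval -0.94 to -0.14) that did not pass (adjusted p = 0.091). The intervals of these related transporters lay on opposite sides of 0, although the difference between them was not tested.

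Slc7a11, the cystine and glutamate antiporter xCT, was at 9.37 and 8.89 in untreated and 8.22 and 9.20 in TGFβ cells. TGFβ replicate 1 was the lowest array and TGFβ replicate 2 lay between the untreated arrays, so the difference of -0.42 had a wide interval (-1.23 to 0.39) and was 0.070 without TGFβ replicate 1. Slc7a5, the light chain of the leucine transporter LAT1, was at 10.32 and 10.94 in untreated and 11.26 and 10.98 in TGFβ cells, and only untreated replicate 1 stood well below the others. Its difference of 0.49 did not pass (adjusted p = 0.23), and it was 0.80 without untreated replicate 2, where it passed (adjusted p = 0.031), but 0.18 without untreated replicate 1 (adjusted p = 0.68). Slc3a2, the heavy chain shared by xCT and LAT1, lay between 12.54 and 12.73 and the glutamine carrier Slc38a2 between 12.77 and 12.93, against a highest value of 14.29 anywhere on the arrays. Slc7a1, the arginine and lysine carrier, lay between 10.21 and 10.42 in all 4 arrays.

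The promoters of the called genes that hold the Atf4 core, Slc1a4 and Got1, are shown whole because they are the called genes with a match. Each runs 5′ to 3′ along the gene's strand (minus for both), from 250 bases before to 50 after the gene start, with the core in capitals as it reads on that strand.
Slc1a4, chr11:20332664-20332963: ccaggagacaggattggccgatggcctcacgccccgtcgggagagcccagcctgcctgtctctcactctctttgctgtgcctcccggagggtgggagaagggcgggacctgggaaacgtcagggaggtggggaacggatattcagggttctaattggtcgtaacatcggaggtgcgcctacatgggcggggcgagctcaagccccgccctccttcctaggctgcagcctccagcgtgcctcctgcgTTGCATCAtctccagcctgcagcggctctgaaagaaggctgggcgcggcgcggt
Got1, chr19:43524556-43524855: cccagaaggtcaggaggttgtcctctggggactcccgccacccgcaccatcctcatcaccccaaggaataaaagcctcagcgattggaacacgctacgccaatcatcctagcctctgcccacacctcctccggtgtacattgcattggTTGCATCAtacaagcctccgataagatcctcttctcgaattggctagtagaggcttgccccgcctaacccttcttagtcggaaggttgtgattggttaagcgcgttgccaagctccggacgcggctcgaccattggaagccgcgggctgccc
The core lies at the gene start of Slc1a4 and 102 bases upstream of it in Got1.

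In some of these genes, Cth, Slc7a11 and Atf3 among them, the gap between the TGFβ replicates was larger than the treatment difference. How often this holds over all genes was not counted. In 7 of the 33 genes (21.2%) TGFβ replicate 2 was at least 0.5 above TGFβ replicate 1, against 1.11% of all genes, and in 0 of the 33 was replicate 1 higher by as much, against 0.657%. With 1 array on each side this has no test. The 7 genes were Cth (1.11 higher in replicate 2), Slc7a11 (0.98), Aldh1l2 (0.56), Ddit3 (0.56), Atf3 (0.55), Trib3 (0.54) and Chac1 (0.51). Cebpb (0.46) and Ddit4 (0.44) lay just under that step. Only 0.135% of all genes had a larger gap in that direction than Cth, 0.206% than Slc7a11 and 1.06% than Chac1. Subtracting each array's median left 4 of the 33 genes past the step, against 0.878% of all genes, and cyclic loess gave 9, against 1.24%. The 1.11% is not matched for brightness. Without the dimmer 50% of genes 7 Atf4-linked genes passed the step, against 1.84% of the genes kept.

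By role, TGFβ replicate 2 was the higher one in 8 of 8 factors and regulators (median gap 0.35) and in 5 of 6 stress effectors (median 0.18), against 49.1% of all genes. The folate enzymes had a median gap of -0.12 and the transporters of 0.022. Measured from the untreated mean, the factors had a median of -0.12 in TGFβ replicate 1 and 0.32 in TGFβ replicate 2, while over all genes these medians were 0.00053 and 0.014. The 6 called genes had TGFβ replicates 0.04 to 0.25 apart, a small gap being part of what a call requires.

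The 10 measured genes with the Atf4 core in their promoter window were all higher in TGFβ replicate 2, with a median gap of 0.26. Of the 10 genes 4 (Slc7a11, Atf3, Trib3 and Chac1) passed the step of 0.5. Vldlr, dim in all arrays, was higher by only 0.015 and Asns by 0.054, and the signs were not recounted after median centring. The classes also overlap with role, as 8 of 8 factors and regulators were higher in replicate 2, with or without the core. Of the 18 measured genes with a window but without the core 11 were higher in replicate 2, with a median gap of 0.056, and 1, Ddit3, passed the step. Cth and Aldh1l2, which also passed the step, have no window and stand in neither class. Over all genes 49.1% were higher in TGFβ replicate 2 and 1.11% passed the step. These shares were not computed for all tested genes that hold the core. The median TGFβ difference was 0.086 with the core and 0.052 without it. These are descriptions of genes that share arrays, and the difference between the classes was not tested.

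The untreated replicates differed along other genes. Untreated replicate 2 was at least 0.5 above replicate 1 in 3 of the 33 genes, against 0.296% of all genes, namely Mthfd2 (0.63), Slc7a5 (0.62) and Mthfd1l (0.60). Untreated replicate 1 was higher by as much in 1, Nupr1, by 0.51, against 1.08% of all genes. Serine, folate and other amino acid enzymes were higher in untreated replicate 2 in 3 of 3, 5 of 5 and 4 of 4 genes. The share was 50% over all genes, and 21 of the 33 genes lay that way. Aminoacyl-tRNA synthetases often given as Atf4 targets, which are not among the 33 genes, were also higher in untreated replicate 2, in 11 of 11. So were 10 of 12 immediate early genes, 7 of 9 heat shock genes and 5 of 6 other synthetases, but 3 of 8 epithelial markers. Over all the pathway, heat shock and immediate early lists described below it was 96 of 138 genes. These shares are not matched for brightness. In untreated replicate 2 Slc7a11 was lower by 0.48 and Ddit4 by 0.36.

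**Figure D3:**
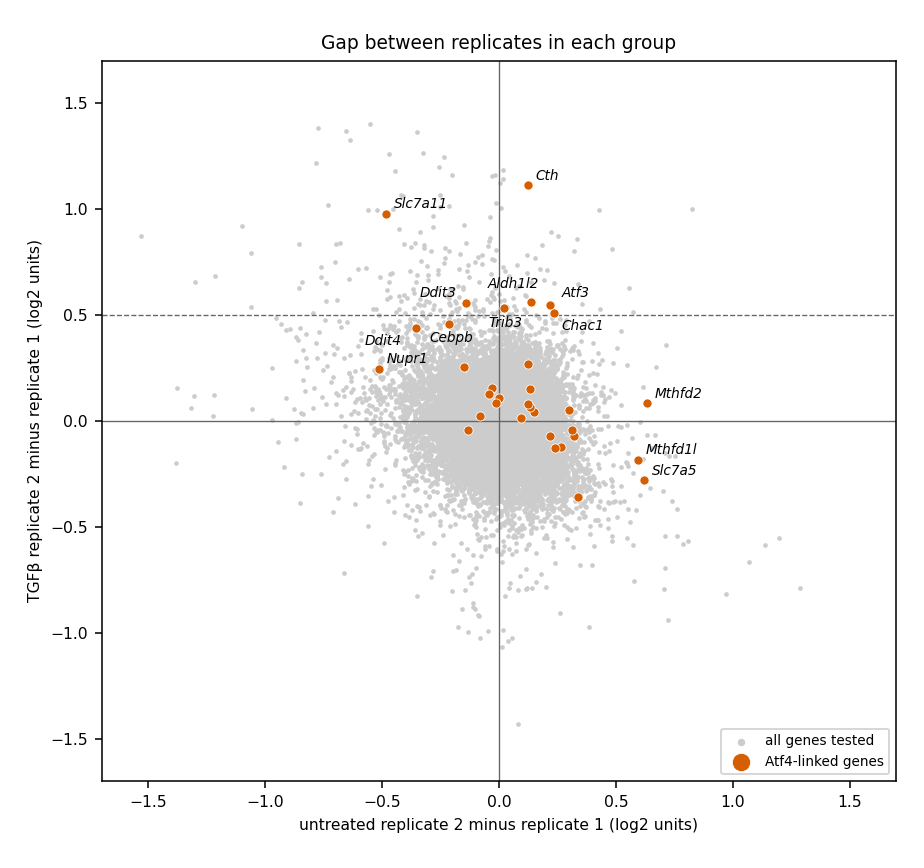
Each point is a gene, with the gap between the untreated replicates on the x axis and the gap between the TGFβ replicates on the y axis (replicate 2 minus replicate 1, log2 units), in grey for all genes tested (11 lie outside the axes) and orange for the Atf4-linked genes. The dashed line is the step of 0.5, with Cth, Slc7a11, Aldh1l2, Ddit3, Atf3, Trib3 and Chac1 above it and Mthfd2, Slc7a5 and Mthfd1l far to the right.

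Other markers also differed between the TGFβ replicates. Epithelial markers were higher in TGFβ replicate 2 in 7 of 8 genes, with a median gap of 0.30, among them Cdh1 at 9.97 and 10.66 and Epcam at 10.51 and 10.97, so that for these genes replicate 1 lay farther from the untreated arrays. Heat shock genes were higher in replicate 2 in 1 of 9 (median gap -0.15), and immediate early genes in 6 of 12 (median 0.029). The part of these in the Atf4-linked gap was not tested.

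Other genes of the pathway rose more often than they fell. Their lists were drawn up by function but with earlier results of these data known, so their counts are a description too. Over 117 distinct genes of these lists 26 rose, 3 fell and 88 did not pass, so 24.8% were called, against the 13.6% of all genes (6.49% higher and 7.15% lower). These shares are not matched for brightness, as 15 of the 117 genes were dim in both groups, against 9022 of 19938. Without the dimmer 50% of genes 2454 of 9969 genes were called (1139 higher and 1315 lower). With heat shock and immediate early genes added, the lists then had 39 of 122 called (30 higher and 9 lower). Of 17 further Atf4 targets 5 rose and 0 fell (median difference 0.21), led by Gadd45a, a growth arrest gene, which rose 3.36-fold, and Vegfa, the angiogenic factor, which rose 2.78-fold (adjusted p = 8.6e-04). Gadd45a, called at adjusted p = 0.018, was lost without TGFβ replicate 2 (1.54, adjusted p = 0.058). Of 14 eIF2 kinases, eIF2, eIF2B and phosphatase subunits 3 rose and 0 fell. The largest rise there was in Ppp1r15a, which brings a phosphatase to eIF2, from 8.28 and 8.32 to 8.87 and 9.31 (adjusted p = 0.022). It did not pass after dropping untreated replicate 1 (0.78, adjusted p = 0.079) or its partner, replicate 2 (0.81, adjusted p = 0.065). The count over these lists and the heat shock and immediate early genes was 37 of 138 (30 higher and 7 lower), 22 without TGFβ replicate 1 (17 and 5) and 23 without untreated replicate 1 (15 and 8).

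Aminoacyl-tRNA synthetases charge tRNAs with amino acids. They rose in 2 of 11 that are often given as Atf4 targets and in 1 of 6 others, with 0 falls. Beside the counts of these and the following lists, 6.49% of all genes were called higher and 7.15% lower. Median differences of the synthetase lists were 0.16 and 0.18. Tars, for threonine, rose by 0.52 (adjusted p = 0.031), but dropping untreated replicate 1 gave 0.38 (adjusted p = 0.12), dropping TGFβ replicate 1 gave 0.55 (adjusted p = 0.082) and dropping TGFβ replicate 2 gave 0.49 (adjusted p = 0.096). Of 18 other folate genes 4 rose and 0 fell. Aldh1l1, the cytosolic relative of Aldh1l2, went from 6.27 and 6.13 to 8.59 and 9.30 and rose by 2.74 (adjusted p = 0.0016), from a dim untreated level that limits its fold. Slc46a1, a folate transporter, rose by 1.28 (adjusted p = 0.0018).

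Of 13 other amino acid enzymes 3 rose and 0 fell, led by Bcat1, the cytosolic branched chain transaminase, at 8.63 and 9.37 in untreated and 11.05 and 10.67 in TGFβ cells, which rose 3.63-fold (adjusted p = 0.0082). Of 18 other amino acid transporters 2 rose, 3 fell and 13 did not pass. Slc7a6, a relative of Slc7a5 that also pairs with Slc3a2, rose by 0.90 (adjusted p = 0.0074), and the leucine carrier Slc43a2 fell by 1.28 (adjusted p = 0.0093). Of 21 genes of the Atf6 and Xbp1 arms and ER chaperones 7 rose and 0 fell, against 6.49% and 7.15% of all genes. In this list 0 genes were dim in both groups, and without the dimmer 50% of all genes 2454 of 9969 were called. Its rises included the co-chaperone Dnajb9, by 0.64 (adjusted p = 0.011), and the sensor Ern1, by 0.62 (adjusted p = 0.0077). Of 9 heat shock genes 1 rose and 1 fell, and of 12 immediate early genes 3 rose and 3 fell, led by Fosb, which rose by 2.09, and Btg2, which fell by 1.02.

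**Figure D4:**
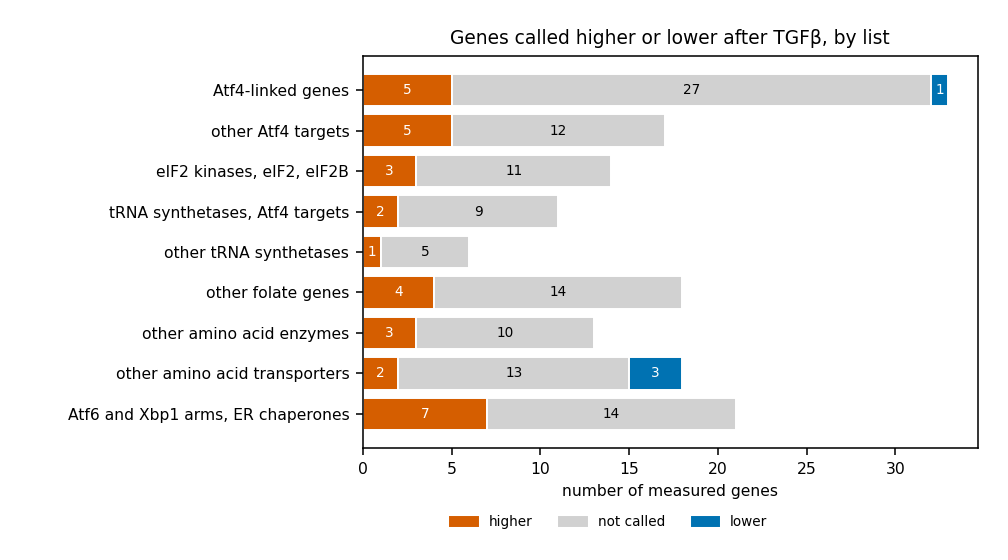
Bars give the number of measured genes per list (x axis), split into genes called higher (orange), not called (grey) and called lower (blue) after TGFβ. The Atf4-linked genes have 5 higher and 1 lower of 33, and the Atf6 and Xbp1 list 7 higher of 21. Over all genes 6.49% were called higher and 7.15% lower.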

How the data were processed

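RNA of 2 untreated and 2 TGFβ-treated Py2T samples was measured on Affymetrix arrays. The authors deposited RMA values on the log2 scale, computed with the R package oligo, per the submitters' processing notes. RMA equalises the distributions of the arrays, which can move single genes, and no detection calls were used. Probe sets with 1 symbol in the platform table (21789) were kept, and the one with the highest mean stood for a gene with several. The linear model was fitted across all 19938 genes in limma 3.58.1 (R 4.3.3), with empirical Bayes moderation and Benjamini-Hochberg adjustment. No filter or further normalization was applied. The number of arrays limits the precision. The genes and lists were chosen with earlier results of these data known. All listed genes are named, and from other lists up to 3 rises and 3 falls among called genes. Alternatives were 3 other scalings (median centring, cyclic loess and a further quantile normalization) and omission of the dimmest 25% or dimmer 50% of genes. Others were the mean over a gene's probe sets, a variance model with trend and robust variances, a replicate block and omission of each array. Promoter windows are from RefSeq.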

Additional observations from a re-analysis of the deposited data

How the results depend on the processing

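Sesn2 kept its call in 12 of 12 alternatives, Psph lost it in 1, Mthfd2 in 2, Slc1a4 in 4 and Atf5 and Got1 in 7 each. The mean over probe sets and the omissions of dim genes left the values of these genes unchanged, so these alternatives test their calls little. With the replicate number as a block 1624 of all genes were called, 3 of the 33 Atf4-linked genes and 21 genes of the other lists. The same-numbered deviations from the group means correlated at -0.213 over genes with 2 pairs, so the numbers were not taken to pair the samples. A crossed replicate block, chosen after seeing the data, gave 3640, 10 and 49. Leaving out each array in turn gave 1535 to 2260 genes, 3 to 6 Atf4-linked genes and 22 to 30 genes of the other lists. After median centring 4 Atf4-linked genes were at least 0.5 higher in TGFβ replicate 2, against 0.878% of all genes. Differences that changed sign were those of genes not called. Nupr1 was at -0.015 with cyclic loess and -0.0081 with repeated quantile normalization, and Chac1 at 0.014 with median centring. Without single arrays Atf3 ranged from -0.19 to 0.36, Ddit3 from -0.23 to 0.33, Cebpb from -0.46 to 0.0018, Nupr1 from -0.25 to 0.27, Trib3 from -0.095 to 0.44, Chac1 from -0.26 to 0.25, Fgf21 from -0.26 to 0.0045, Slc7a11 from -0.91 to 0.070 and Slc7a1 from -0.055 to 0.16. The median difference of the Atf4-linked genes stayed between 0.049 and 0.175 in the alternatives run. The cause of these changes was not tested. With 2 arrays in a group small differences cannot be told from replicate spread, and Fgf21 and Vldlr were too dim to judge.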
